A study of Mus musculus with 2 samples.

Results

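Group 2 innate lymphoid cells (ILC2) were selected from single-cell RNA profiles of gonadal white adipose tissue (gWAT), measured in its stromal vascular fraction (SVF). A barcode was kept when it held at least 500 detected genes and at most 10% of its unique molecular identifiers (UMIs, which count captured RNA molecules) came from mitochondrial genes. A kept cell was taken as an ILC2 when it held a UMI of Gata3, at least 3 UMIs over Gata3, Il1rl1, Il2ra, Rnf128 and Klrg1, no UMI of Cd3d, Cd3e or Cd3g, no UMI of Foxp3, Cd79a, Pecam1 or Msln, fewer than 10 UMIs over the mast cell proteases Cpa3, Mcpt4, Cma1 and Tpsb2, and fewer than 10 UMIs of Dcn. This selection found 173 cells of 4839 kept cells, which came from 11252 barcodes. They were 141 of 3881 kept cells (3.63%, 95% exact Clopper-Pearson interval 3.07 to 4.27) in the control library and 32 of 958 (3.34%, 2.30 to 4.68) in the KO library. The interval of each share contained the other share. These intervals cover counting error over cells, and 1 library per genotype cannot decide whether ILC2 abundance differed. Without the selected cells that carried natural killer cell genes, described below, the shares were 3.07% (control) and 2.51% (KO).

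The study deleted Pgam1, which encodes the glycolytic enzyme phosphoglycerate mutase 1, in adipocytes and asked what follows in adipose tissue. The KO library came from Adipo-Pgam1 KO mice, which carried Adipoq-Cre and floxed Pgam1, and the control library came from littermates labelled wildtype. The paper describes its littermate controls as carrying floxed Pgam1 without Adipoq-Cre. Both libraries came from C57BL/6 males of 13 weeks of age. The SVF was freed with collagenase and Dispase and passed through an erythrocyte lysis step. The Adipoq promoter drives Cre in adipocytes, which are largely lost from the SVF, so the ILC2 were not the cells targeted by the deletion. Each genotype was 1 library, and the number of mice in a library was not given in the sources used here. No difference between the genotypes therefore had a replicate check, no p-value was computed, and every interval below covers counting error only.

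ILC2 are tissue-resident lymphocytes without a rearranged antigen receptor. They depend on the transcription factors GATA3 and RORα, carry the receptor for the alarmin interleukin 33 (ST2, the product of Il1rl1), and answer it with type 2 cytokines such as interleukin 5 and interleukin 13. In adipose tissue they are known for sustaining eosinophils and alternatively activated macrophages and for promoting beiging.

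Promoter windows of Il1rl1, Csf2, Il13 and Lif, chosen among those that held a motif, are shown first. GATA letters were searched because Gata3 defines these cells, and AP-1 letters because AP-1 genes differed between the libraries. Windows cover the 250 bases before a RefSeq transcription start on GRCm38.p6, and 24 of 28 genes looked up had one. Capitals mark AGATAA or its reverse complement TTATCT, the GATA letters, or TGACTCA or its reverse complement TGAGTCA, the AP-1 letters, searched on both strands. Neither motif overlaps the other. Il1rl1 has a distal start, with its window at chr1:40429320-40429569, and a proximal start at chr1:40439379-40439628, both on the plus strand. The windows of Csf2 (chr11:54249900-54250149) and Il13 (chr11:53634703-53634952) lie on the minus strand and that of Lif (chr11:4257318-4257567) on the plus strand.
Il1rl1 distal: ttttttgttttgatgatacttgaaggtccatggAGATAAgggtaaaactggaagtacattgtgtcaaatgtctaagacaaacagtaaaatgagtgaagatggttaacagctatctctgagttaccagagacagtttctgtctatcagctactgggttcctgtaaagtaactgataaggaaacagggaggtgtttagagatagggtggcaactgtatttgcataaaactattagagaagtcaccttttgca
Il1rl1 proximal: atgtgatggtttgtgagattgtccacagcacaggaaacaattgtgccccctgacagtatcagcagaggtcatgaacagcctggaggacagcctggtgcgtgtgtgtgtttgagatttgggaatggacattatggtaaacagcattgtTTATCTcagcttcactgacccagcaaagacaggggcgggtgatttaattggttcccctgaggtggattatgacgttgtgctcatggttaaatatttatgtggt
Csf2: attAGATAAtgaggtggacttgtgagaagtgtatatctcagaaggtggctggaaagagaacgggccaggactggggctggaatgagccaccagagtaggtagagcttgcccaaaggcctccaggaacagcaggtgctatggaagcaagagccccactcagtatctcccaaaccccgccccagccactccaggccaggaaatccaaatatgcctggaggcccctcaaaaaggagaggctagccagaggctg
Il13: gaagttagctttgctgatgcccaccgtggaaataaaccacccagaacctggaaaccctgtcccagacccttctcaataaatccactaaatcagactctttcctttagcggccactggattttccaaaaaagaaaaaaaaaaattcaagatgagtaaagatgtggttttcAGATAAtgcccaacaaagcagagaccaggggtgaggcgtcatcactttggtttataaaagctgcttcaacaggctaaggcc
Lif: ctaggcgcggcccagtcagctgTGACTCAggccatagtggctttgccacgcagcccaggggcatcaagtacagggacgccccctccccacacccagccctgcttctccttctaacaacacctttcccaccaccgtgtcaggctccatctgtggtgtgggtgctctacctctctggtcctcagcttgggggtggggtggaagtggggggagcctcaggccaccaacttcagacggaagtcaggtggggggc
The GATA letters began 217 bases before the distal and 103 bases before the proximal start of Il1rl1, 247 bases before that of Csf2 and 81 bases before that of Il13. The AP-1 letters began 228 bases before the start of Lif. Of the other genes found, Lpcat2 held the GATA letters and the rest, among them Gata3, Furin, Hilpda, Fosl2 and Nr4a1, held neither motif. Among all 32851 windows of this length, 9.99% held the GATA letters and 4.46% the AP-1 letters. These matches describe the sequence and not binding, and counts from the 3′ ends of transcripts do not show which start was used.

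The label was checked against the markers cell by cell. Gata3 (chr2:9857078-9890034, minus strand, GENCODE M21 on GRCm38), the factor that ILC2 require, was present in every selected cell by construction, with 801 UMIs in control cells against 216 UMIs in KO cells. Il1rl1 had 964 UMIs in the control cells, or 1399 CPM (UMIs of a gene per 1000000 UMIs of all genes in the same cells), and 273 UMIs (1231 CPM) in the KO cells. It was detected in 82.3% of control and 75% of KO cells, so some selected cells lacked it.

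The cells without Il1rl1 mostly carried genes of natural killer (NK) cells. The sum over Ncr1, Klrb1c, Klre1 and Eomes, an activating receptor, NK1.1, an inhibitory lectin receptor and an NK transcription factor, divided the selected cells. In the control library 119 cells held none of these UMIs, no cell held 1 and 22 cells (15.6%) held 2 or more. In the KO library 21 cells held none, 3 held 1 and 8 cells (25%, 11.5 to 43.4) held 6 or more. Among these NK-gene cells, Il1rl1 was detected in 9.09% of control and 12.5% of KO cells, against 95.8% of the other cells in either library. Ccl5, a chemokine abundant in NK cells, was detected in every NK-gene cell of both libraries. Their summed level over the NK marker list was 7512 CPM in control cells against 11411 CPM in KO cells. These values were close to the 8308 and 9733 CPM of the NK cells themselves. However, that list holds Ncr1, Klrb1c, Klre1 and Eomes. The same genes chose both the NK-gene cells and the NK cells, so this closeness follows in part from the choice. By Il1rl1 and Ccl5, which did not make the cut, the 30 NK-gene cells went against the label. Values without these cells are given below where they move a value. Cutting them away was chosen after their values were seen, and the 119 control and 24 KO cells that remained are called ILC2 without NK genes.

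**Figure D1:**
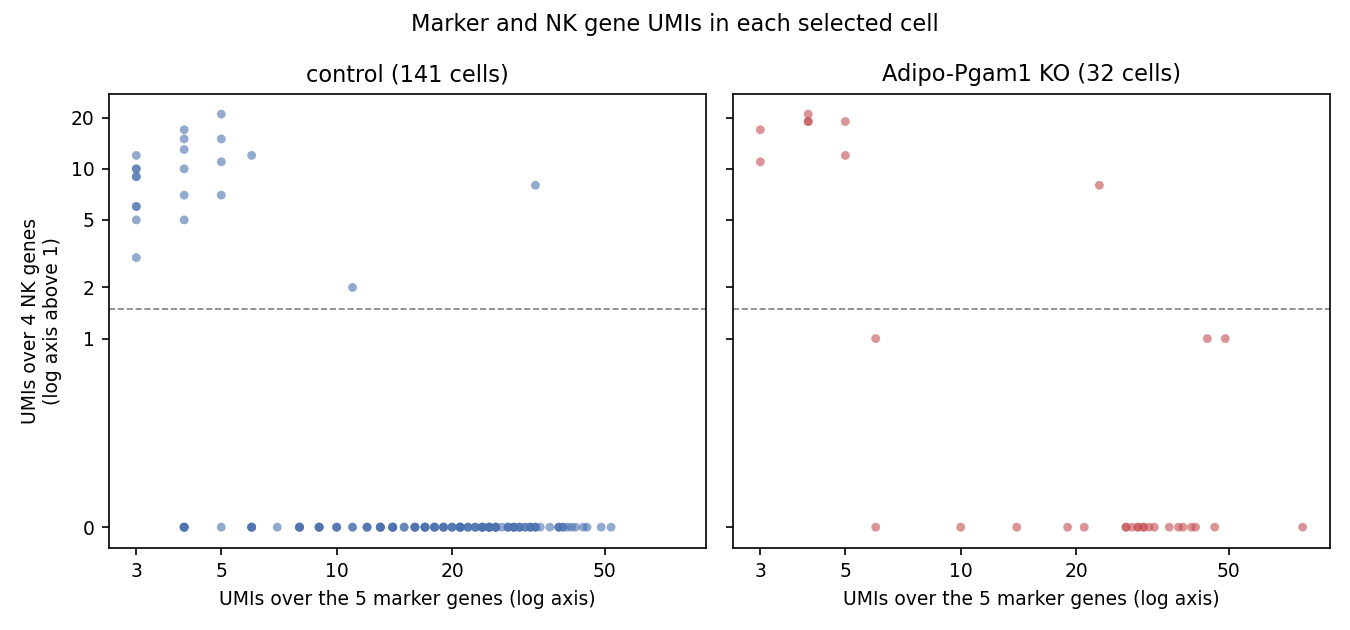
Each point is 1 selected cell of the control (left) or KO library (right), with its UMIs over the 5 marker genes (x axis, log scale) and over the 4 NK genes (y axis, log scale above 1). Cells above the dashed line, 22 control and 8 KO, hold 2 or more NK-gene UMIs and sit mostly at low marker sums.

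Cells just inside the marker threshold were of this kind. The 9 control and 2 KO cells with exactly 3 marker UMIs all carried NK genes and held no Il1rl1, and of the 11 control and 3 KO cells with exactly 4, NK genes were present in 6 and 3. From 5 marker UMIs on, 121 control and 27 KO cells remained, of which 7 and 3 carried NK genes. Just outside, 26 control and 3 KO cells had 2 marker UMIs, and 22 and 3 of these carried NK genes. A different kind of cell lay just outside the CD3 limit. The 19 control and 5 KO cells with a single CD3 UMI all held Il1rl1, and Trac, the constant chain of the αβ T cell receptor, was detected in 5.26% and 0%. With 2 or more CD3 UMIs there were 74 control and 53 KO cells, and Trac was detected in 45.9% and 66.0%.

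Sequencing depth per cell differed between the libraries. The median selected cell held 4615 UMIs and 1990 genes (control) or 7292 UMIs and 2525 genes (KO), with mitochondrial medians of 5.58% and 5.86%. Together the 141 control cells held 688955 UMIs and the 32 KO cells 221724 UMIs, and ILC2 without NK genes held 574073 and 170634. The libraries shared 9 barcodes, none of which was a kept cell in both libraries or a selected cell in either. Levels are given as CPM of these sums, and the main shares of cells with a UMI are repeated for cells thinned to 2000 UMIs, as the share expected over all possible draws.

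Within ILC2 without NK genes, the marker genes varied widely from cell to cell. Gata3 had a median of 5 UMIs per cell in control cells and 8 in the deeper KO cells, which scaled to the depth of each cell came to medians of 1145 and 1161 CPM. Il1rl1 had medians of 7 and 10.5 UMIs, or 1650 and 1678 CPM. The median of Il2ra, the high-affinity chain of the interleukin 2 receptor, was 504 CPM in control cells against 716 CPM in KO cells. Rnf128, a ubiquitin ligase also known as GRAIL, had medians of 465 and 259 CPM, and Klrg1, an inhibitory lectin receptor found on mature ILC2, of 351 and 389 CPM. These genes chose the cells, so their levels are a description. Of all selected cells, 98 of the control and 23 of the KO library held at least 4 of the 5 marker genes, and 62 and 17 held all of them. Nrgn, which encodes neurogranin and was a marker of these cells outside the selection, was detected in 53.2% of selected cells in the control (170 UMIs, 247 CPM) and 62.5% in the KO library (65 UMIs, 293 CPM), and in 33.7% (25.5 to 42.0) and 32.7% (17.3 to 52.8) after thinning.

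Other genes known in ILC2 were compared with 3 lymphocyte sets from the same libraries: NK cells without CD3 (166 control and 26 KO cells), Foxp3-positive T cells (24 and 4) and CD8-negative T cells without Foxp3 (114 and 64), called CD8-negative T cells below. The last set held genes of both T cell lineages, with Trac at 375 CPM in the control against 304 CPM in the KO library and Trdc, the constant chain of the δ T cell receptor, at 449 and 634 CPM. These ratios set selected cells against unselected ones and are descriptions without a test. The list, which includes Nrgn, was chosen with earlier results of these data known. Its counts are therefore no independent support for the label. Of 22 genes of this list, 18 had enough UMIs against NK cells in the control library, and 15 were over 2-fold higher in ILC2 and none over 2-fold lower. The background share of all genes over 2-fold higher in that comparison was 10.2%, and that of genes over 2-fold lower 8.99%. The median log2 ratio of the list was 3.04, against 0.005 over all genes tested. In the KO library 16 of 18 were over 2-fold higher and none lower, against backgrounds of 12.8% and 12%, with a median of 2.12.

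Ratios over T cells were smaller. Over CD8-negative T cells, 9 of 19 genes were over 2-fold higher and none lower in the control (background 9.39% higher and 6.93% lower) with a median log2 ratio of 0.97, and 7 of 18 were higher and 1 lower in the KO library (background 7.79% higher and 8.01% lower) with a median of 0.46. Over Foxp3-positive T cells, 7 of 18 were higher and 1 lower in the control (background 5.27% higher and 14.7% lower, median 0.50). A stricter cell filter turned the sign of this control median, as given below where the dependence on processing is described. In the KO library 3 were higher and 4 lower (background 1.91% higher and 52.2% lower, median -0.17), where the Foxp3-positive set held 4 cells. These cells held 18539 UMIs in all, so raising sums under 3 UMIs to 3 pulls these KO values down, also without NK-gene cells. Hlf counted as lower, although it was at 76.7 CPM in selected cells and at 53.9 CPM (1 UMI) in the set. Against the pooled sets 11 of 19 were higher and none lower in the control library (background 6.59% higher and 7.87% lower) and 7 of 18 higher and 1 lower in the KO library (background 6.15% higher and 6.23% lower). Without the NK-gene cells the control medians were 3.28 over NK cells (15 of 18 higher, background 11%), 1.05 over CD8-negative T cells (10 of 19, background 9.65%) and 0.72 over Foxp3-positive T cells (7 of 18, background 5.7%). In the KO library they were 2.45 (16 of 18, background 13.8%), 0.69 (7 of 18, background 6.84%) and 0.15 (4 of 18, background 2.85%).

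The genes behind these counts differed in how widely they were shared. Some were also abundant in T cells, NK cells or both. Il7r, the interleukin 7 receptor that sustains lymphocytes, was at 948 CPM in control ILC2 without NK genes, 832 CPM in CD8-negative T cells and 70.3 CPM in NK cells. Rora, the gene of RORα, was at 571 CPM in control ILC2 without NK genes, 346 CPM in CD8-negative T cells and 39.8 CPM in NK cells. Id2, which blocks the T and B cell programme in innate lymphoid cells, was at 1948 CPM in control ILC2 without NK genes, 1459 CPM in NK cells and 942 CPM in CD8-negative T cells. Thy1, a surface glycoprotein of T cells and ILC2, was lower in control ILC2 without NK genes (321 CPM) than in CD8-negative T cells (694 CPM).

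Others had no UMI in NK cells and were lower in CD8-negative T cells than in ILC2. Ccdc184 was at 202 CPM in control and 217 CPM in KO ILC2 without NK genes, had no UMI in NK cells of either library, and was at 22.5 and 67.9 CPM in CD8-negative T cells. Hlf, a PAR bZIP transcription factor, was at 167 and 99.6 CPM and had no UMI in NK cells. Il1rl1 and Il7r were detected together in 107 of 119 control (89.9%) and 23 of 24 KO (95.8%) ILC2 without NK genes.

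**Figure D2:**
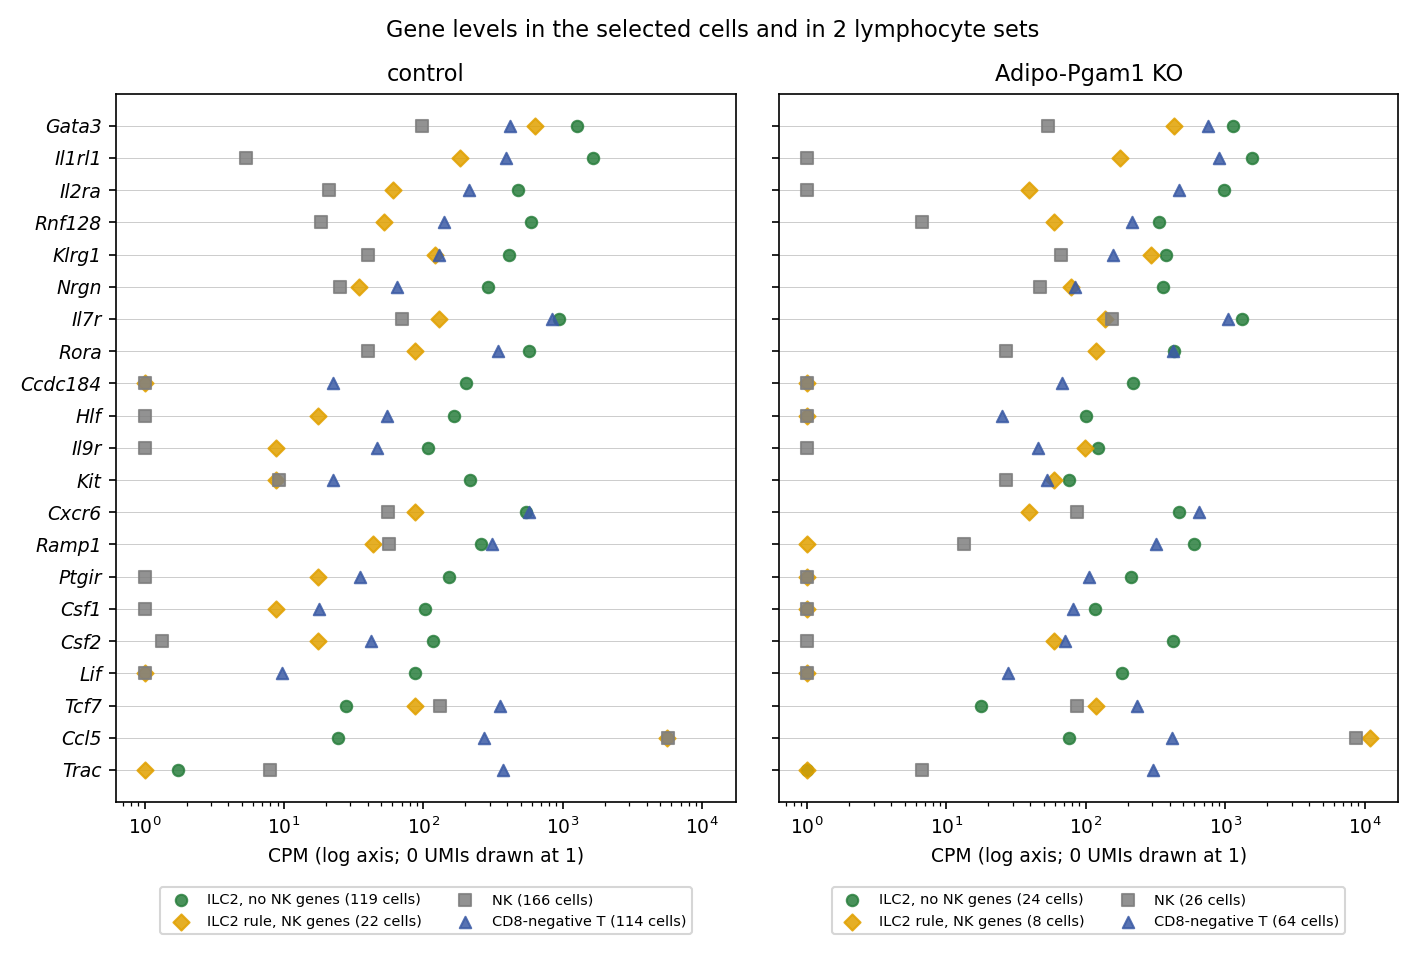
Levels of 21 genes in CPM (x axis, log scale, 0 UMIs drawn at 1) in ILC2 without NK genes, selected cells with NK genes, NK cells and CD8-negative T cells, for the control and KO libraries. The upper 5 genes are those of the selection, so their high levels in ILC2 follow from it. Ccdc184, which the selection did not use, is higher in ILC2 without NK genes than in the other sets, while the selected cells with NK genes follow the NK cells at Ccl5.

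The genes leading the selected cells over the pooled 3 sets in the control library were next listed by fold, among genes with at least 50 UMIs that were also over 2-fold higher in the KO library. Slc7a8, a neutral amino acid transporter, led with 206 UMIs (299 CPM) against 21 UMIs (14.2 CPM), a log2 ratio of 4.39 (3.74 to 5.12). In the KO library it was 42 against 39 UMIs, a log2 ratio of 1.46 (0.80 to 2.13). Lif, a cytokine of the interleukin 6 family, followed with 50 UMIs in 25 control cells against 6 UMIs in the pool, at 4.16 (2.94 to 5.67) in control cells against 2.85 (1.82 to 3.99) in KO cells. Dach2, a transcriptional regulator, and Ccdc184 stood at 4.15 each in the control library, and at 1.35 and 1.81 in the KO library. For Rasgrp4, a Ras exchange factor, the interval of the KO ratio of 1.52 (-0.02 to 3.10) reached 0.

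The other leading genes had various roles. Alox5 encodes 5-lipoxygenase, which starts leukotriene synthesis, and had a log2 ratio of 2.82 in control cells against 2.21 in KO cells. Lpcat2, which makes platelet-activating factor, was at 2.99 and 2.13. Ptgir, the prostacyclin receptor, had 89 UMIs in control ILC2 against 22 in the pool, a ratio of 3.12, and stood at 1.13 in the KO library. Stc2, a secreted glycoprotein, was at 3.25 and 1.60, and Irs2, an insulin receptor substrate, at 2.46 and 1.54. Tmem158 was one of the few whose ratio was about as large in both libraries, at 3.22 and 3.12. Between the libraries, levels in the selected cells and in the T cells both differed, without a common direction. Slc7a8 was at 299 and 189 CPM in selected cells of the control and KO libraries and at 30.6 and 98.1 CPM in CD8-negative T cells. For Hlf the levels were 142 and 76.7 CPM in selected cells and 54.7 and 25.1 CPM in CD8-negative T cells. The make-up of the pool differed as well, since NK cells were 166 of its 304 control and 26 of its 94 KO cells.

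**Figure D3:**
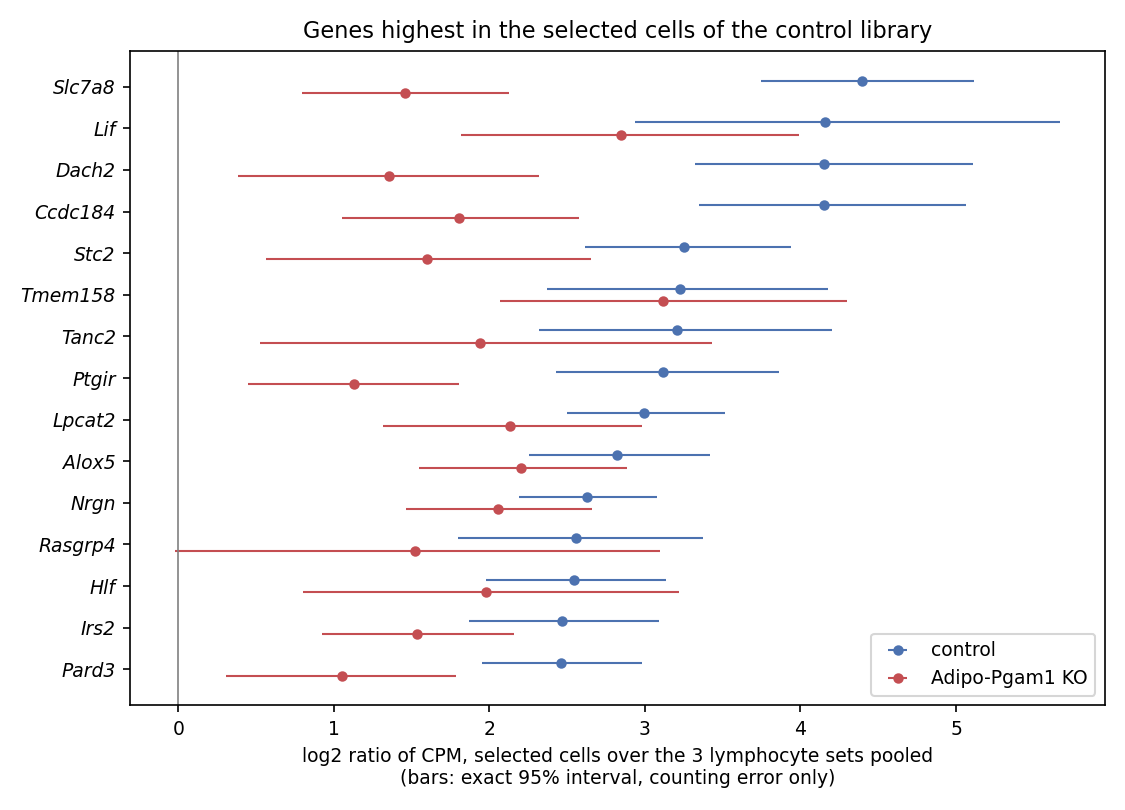
Log2 ratio of the level in selected cells over the pooled NK, Foxp3-positive T and CD8-negative T cells for the 15 leading genes (y axis), in the control and KO libraries, with 95% counting intervals. Genes were chosen to be over 2-fold higher in both libraries, and the ratios run from 4.39 for Slc7a8 in the control down to 1.05 for Pard3, a cell polarity gene, in the KO library.

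The lowest genes were mostly those of T cells. The selection excluded cells with UMIs of CD3 genes or Foxp3, and the pool held T cells. Low values of T cell genes therefore follow largely from that choice. Trac had 1 UMI in the 141 control cells against 303 in the pooled sets, and 0 against 135 in the KO library. Cd4, the co-receptor of helper T cells, had 1 against 127 UMIs and 0 against 50, and Cd5, a T cell surface regulator, had 0 against 129 and 0 against 56. Ctla4, an inhibitory receptor of T cells, had 1 against 109 and 0 against 36. Trdc kept 5 UMIs in the control against 347 and 7 in the KO library against 263. The constant β chain genes of the receptor were the exception. Trbc1 had 233 UMIs in control cells against 127 in KO cells, and Trbc2, a near-identical copy with which it may share reads, 232 and 66. Trbc1 was detected in 62.2% of control ILC2 without NK genes and in 78.3% of control NK cells, which like ILC2 carry no rearranged receptor, and Trbc2 in 68.1% and 32.5%. Genes of group 3 innate lymphoid cells were almost absent, with 2 UMIs in control cells against none in KO cells over the list.

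The remaining lists were counted over NK cells in the control library, where the median of all genes was 0.005 and the shares of all genes over 2-fold higher and lower were 10.2% and 8.99%. Of the effector genes, 7 of 12 tested were over 2-fold higher and 4 lower (median 1.79), and of the costimulatory and checkpoint receptors 6 of 10 were higher and 1 lower (1.21). Receptors for neural and lipid signals had 6 of 11 higher and none lower, with a median of 1.13. Cytokine receptors had 4 of 17 higher and 4 lower, and transcription factors 8 of 24 higher and 5 lower. Migration genes had 3 of 12 higher and 5 lower and a median of -0.72. Glycolysis genes had 1 of 15 higher and 1 lower, and lipid handling genes 2 of 12 higher and 3 lower. Early response genes, which cell isolation is known to induce, had 8 of 15 higher and none lower in the control library, and 10 of 13 higher and none lower in the KO library, where the shares of all genes were 12.8% and 12%.

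Compared with their littermate control, ILC2 of the Adipo-Pgam1 KO library were then examined gene by gene. Of 4811 genes with at least 30 UMIs over both libraries, 114 (2.37%) were over 2-fold higher and 369 (7.67%) over 2-fold lower in the KO cells, and the median log2 ratio was -0.087. Without the NK-gene cells 109 of 4076 (2.67%) were higher and 392 (9.62%) lower. Of the genes counted in either way, 66 higher ones (57.9% of the 114 and 60.6% of the 109) and 233 lower ones were in common. The shares depended on the UMI minimum. Over all selected cells, 4.80% were higher and 7.67% lower with at least 10 UMIs, and 2.16% and 3.20% with at least 100 UMIs. The lists, chosen with earlier results of these data known, were counted over all selected cells. Effector genes had 5 of 8 higher and none lower (Csf2, Areg, Il13, Ccl5 and Xcl1). Il13 was tested through the UMIs of 1 KO cell alone. Without NK-gene cells, Ccl5 and Xcl1 fell under the minimum of 30 UMIs, as their values below show. Other ILC2 genes had 3 of 18 higher (Csf2, Areg and Il13) and 1 lower (Thy1). Transcription factors had 1 of 21 higher (the NK factor Eomes) and 1 lower (Ahr). Cytokine receptors had none of 14 higher and 1 lower (Tnfrsf1b, a receptor of tumour necrosis factor, with 29 and 1 UMIs).

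The deleted gene itself was sparse in these cells. Pgam1 had 39 UMIs in 31 control cells (56.6 CPM) and 7 UMIs in the KO cells (31.6 CPM), a log2 ratio of -0.84 (-2.25 to 0.33) whose interval contained 0. Adipocytes are the targeted cells, and Pgam2, the muscle isoform, had no UMI in either library. Glycolysis genes as a list had 0 of 12 over 2-fold higher and 1 lower. The shares of all genes tested were 2.37% and 7.67%, which also apply to the lipid handling genes below. Ldha, lactate dehydrogenase A, had 269 UMIs in control cells against 124 in KO cells, a log2 ratio of 0.52 (0.20 to 0.83), and Aldoa, aldolase A, had 227 and 73 UMIs, a log2 ratio of 0.00. The list member past 2-fold was Pfkl, a phosphofructokinase, with 28 and 2 UMIs at -2.17 (-5.29 to -0.18). Of lipid handling genes, 1 of 9 was higher, Dgat1, and 3 were lower: Cd36, a fatty acid transporter, with 69 and 1 UMIs (20 of the 69 in a single cell), Fabp4, a fatty acid binding protein of adipocytes and macrophages, with 83 and 5, and Lpl, lipoprotein lipase, with 36 and 3. Fabp4 was at 557 CPM in CD8-negative T cells of the control against 65.4 CPM in those of the KO library and at 172 and 33.3 CPM in NK cells, and Cd36 was at 109 and 17.6 CPM in CD8-negative T cells and at 84.9 and 6.67 CPM in NK cells. Lpl was at 29.0 and 2.51 CPM in CD8-negative T cells and at 106 and 13.3 CPM in NK cells. Macrophage genes, described below, were lower in the same KO cells, and their part in these differences was not tested.

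Of the effector genes over 2-fold higher, Csf2 was detected in the most KO cells. It encodes the growth factor GM-CSF, which acts on macrophages and eosinophils. Among ILC2 without NK genes it had 67 UMIs (117 CPM) in control cells against 72 UMIs (422 CPM) in KO cells, a log2 ratio of 1.85 (1.35 to 2.36). It was detected in 20.2% of control and 58.3% of KO cells, and in 12.1% (6.94 to 19.9) and 35.1% (17.2 to 59.3) after thinning, with overlapping intervals. Over all selected cells the thinned shares were 10.8% and 27.8%. In NK cells 1 of 166 control and 0 of 26 KO cells held it. Single cells held 24 of the control and 32 of the KO UMIs, and without these 2 cells 45 against 43 UMIs remained over all selected cells, a log2 ratio of 1.62 (0.98 to 2.26). The GATA letters of its promoter window, printed above, lie at the far end from the start.

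The other type 2 genes were rare. Il5, which recruits eosinophils, had 8 UMIs in control cells against 5 in KO cells, at most 1 UMI in a cell, for a log2 ratio of 0.96 (-1.0 to 2.75). Il13 had no UMI in control cells and 30 UMIs in KO cells, all in a single cell of 7261 UMIs that also held 16 UMIs of Il1rl1 and 5 of Il2ra, so no ratio is given for it. Areg, an epidermal growth factor family ligand, had 22 UMIs in 6 control cells and 17 UMIs in 4 KO cells, at 1.26 (0.26 to 2.24). Il4 had 6 UMIs in control cells against none in KO cells, Il9 had none in either, and Penk, the precursor of methionine-enkephalin, had 5 and 3. At least 1 of Il5, Il13, Areg, Csf2, Il4 and Il9 was detected in 38 of 119 control (31.9%, 23.7 to 41.1) and 17 of 24 KO (70.8%, 48.9 to 87.4) ILC2 without NK genes, before thinning. Over 7 effector genes together (these 6 and Penk) the log2 ratio was 1.88 (1.5 to 2.26), with 110 UMIs in control cells and 130 UMIs in KO cells, 75 of the latter from Csf2. Without the KO cell that held all Il13 UMIs it was 1.53 (1.13 to 1.94). A stricter cell filter gave a larger ratio, printed below where the dependence on processing is described.

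Most UMIs of the chemokine gene Ccl5 lay in the NK-gene cells. It had 656 UMIs (952 CPM) in control cells against 573 UMIs (2584 CPM) in KO cells over all selected cells, for a log2 ratio of 1.44 (1.28 to 1.60). In ILC2 without NK genes it had 14 and 13 UMIs (24.4 and 76.2 CPM), at 1.64 (0.44 to 2.84). Xcl1, a chemokine for cross-presenting dendritic cells, had 38 and 41 UMIs over all selected cells. In NK-gene cells it had 37 and 21 UMIs (322 and 411 CPM), and in ILC2 without NK genes 1 and 20 UMIs, 16 of the 20 in a single cell. Lif had 50 UMIs in 25 control cells and 31 UMIs in 8 KO cells, a log2 ratio of 0.95 (0.25 to 1.62). Csf1, the macrophage growth factor, had 60 and 20 UMIs, at 0.05.

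The genes highest in the KO selected cells, NK-gene cells included, were identified by fold among those with at least 30 UMIs, after Il13. Furin, a protease that cleaves precursors of growth factors and cytokines, had 168 UMIs (244 CPM) in control cells against 282 UMIs (1272 CPM) in KO cells, a log2 ratio of 2.38 (2.10 to 2.67). Its gene lies at chr7:80388585-80405436 on the minus strand of GRCm38 (GENCODE M21). A single KO cell held 71 of the Furin UMIs, and without the highest cell of each library the log2 ratio was 2.12 (1.81 to 2.42). Hilpda, an inhibitor of triglyceride lipolysis at lipid droplets that hypoxia induces, had 67 UMIs (97.2 CPM) and 116 UMIs (523 CPM), at 2.43 (1.98 to 2.88). Fosl2, an AP-1 subunit, had 55 UMIs (79.8 CPM) and 96 UMIs (433 CPM), at 2.44 (1.95 to 2.94). Furin was detected in 53.8% of control and 79.2% of KO ILC2 without NK genes, and in 34.8% (25.8 to 44.0) and 65.5% (40.7 to 82.8) after thinning, with overlapping intervals. Hilpda was detected in 18.2% (11.9 to 27.0) and 51.3% (28.2 to 71.8) after thinning, and Fosl2 in 15.4% (9.01 to 23.0) and 48.5% (28.2 to 71.8), with intervals that did not overlap. Over all selected cells the thinned shares were 31.9% and 52.1% for Furin, 16.5% (10.5 to 23.6) and 38.5% (22.7 to 59.4) for Hilpda, whose intervals overlapped there, and 14.2% and 44.4% for Fosl2.

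Further genes in this group were read in the same way. Dgat1, which makes triglyceride, had 19 and 39 UMIs at 2.67 (1.85 to 3.55), and Nr4a3, an orphan nuclear receptor of the early response, had 16 and 32 UMIs at 2.64 (1.73 to 3.60). Mxd1, a MAX-binding repressor, had 27 and 47 UMIs at 2.44, of which 26 were in a single KO cell, and it stood at 1.51 without the highest cell of each library. Gm20186, a long intergenic RNA at chr6:18845910-18848207 on the minus strand of GRCm38, had 117 and 179 UMIs at 2.25 (1.90 to 2.60), with 63 in a single KO cell, and stood at 1.85 without the highest cells. Klra4, an NK receptor of the Ly49 family, had 27 and 69 UMIs, all in NK-gene cells. Irf8, a factor of dendritic and NK cells, had 57 and 89 UMIs at 2.28, and 10 and 30 UMIs in ILC2 without NK genes, at 3.34 (2.26 to 4.53). Under a stricter cell filter (1000 genes, and mitochondrial UMIs of 5% or less) its ratio over selected cells turned to -0.24.

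Nr4a1, an orphan nuclear receptor induced by antigen and cytokine signals, was read from the early response list. It had 125 UMIs (181 CPM) in control cells against 131 UMIs (591 CPM) in KO cells, a log2 ratio of 1.70 (1.34 to 2.07). Junb, an AP-1 subunit, had 1802 UMIs (2616 CPM) and 934 UMIs (4212 CPM), at 0.69 (0.57 to 0.80), and Nfkbia, the inhibitor that NF-κB induces, 443 and 309 UMIs at 1.12 (0.90 to 1.33). Over the whole list 2 of 13 were over 2-fold higher and none lower, with a median of 0.45, against 2.37% and 7.67% of all genes and their median of -0.087. The heat shock gene Hspa1a had 2 and 0 UMIs. Summed over the list the level was 10272 CPM in control against 15907 CPM in KO selected cells. It was also higher in KO CD8-negative T cells, at 5913 and 13362 CPM, and in all other kept cells, at 5682 and 7845 CPM, while in NK cells it was at 3706 and 3093 CPM.

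The same genes were read in T cells of the same libraries, a comparison chosen after the ILC2 values were seen. CD8-negative T cells were divided into those with a UMI of Il1rl1 (33 control and 28 KO cells) and those without (81 and 36). In the Il1rl1-positive T cells Furin had 34 UMIs in control cells against 239 in KO cells, a log2 ratio of 2.78 (2.26 to 3.34). Hilpda was at 2.96, Fosl2 at 2.93 and Nr4a1 at 1.41 in these cells, and Gm20186 had 12 and 211 UMIs, at 4.10. In T cells without Il1rl1 the log2 ratio of Furin was 1.01 (0.28 to 1.74) and that of Hilpda 1.10 (-0.41 to 2.60). In NK cells Furin was at -0.92 (-2.87 to 0.56), with 38 and 4 UMIs, while Fosl2 was at 1.98 (1.22 to 2.72). Over all other kept cells of the tissue Furin was at 0.41, Fosl2 at 0.58 and Hilpda at 1.34. Csf2 was a contrast, at 0.27 (-0.72 to 1.28) in Il1rl1-positive T cells with 17 and 21 UMIs, while Areg there had no UMI in the control and 55 UMIs in 5 KO cells. In the same T cells Mxd1 was at 0.29 (-1.93 to 2.62) with 4 and 5 UMIs and Ramp1 at 0.10 (-0.47 to 0.68). Irf8 had 3 and 1 UMIs there, while Dgat1 was at 3.36 and Nr4a3 at 1.86.

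**Figure D4:**
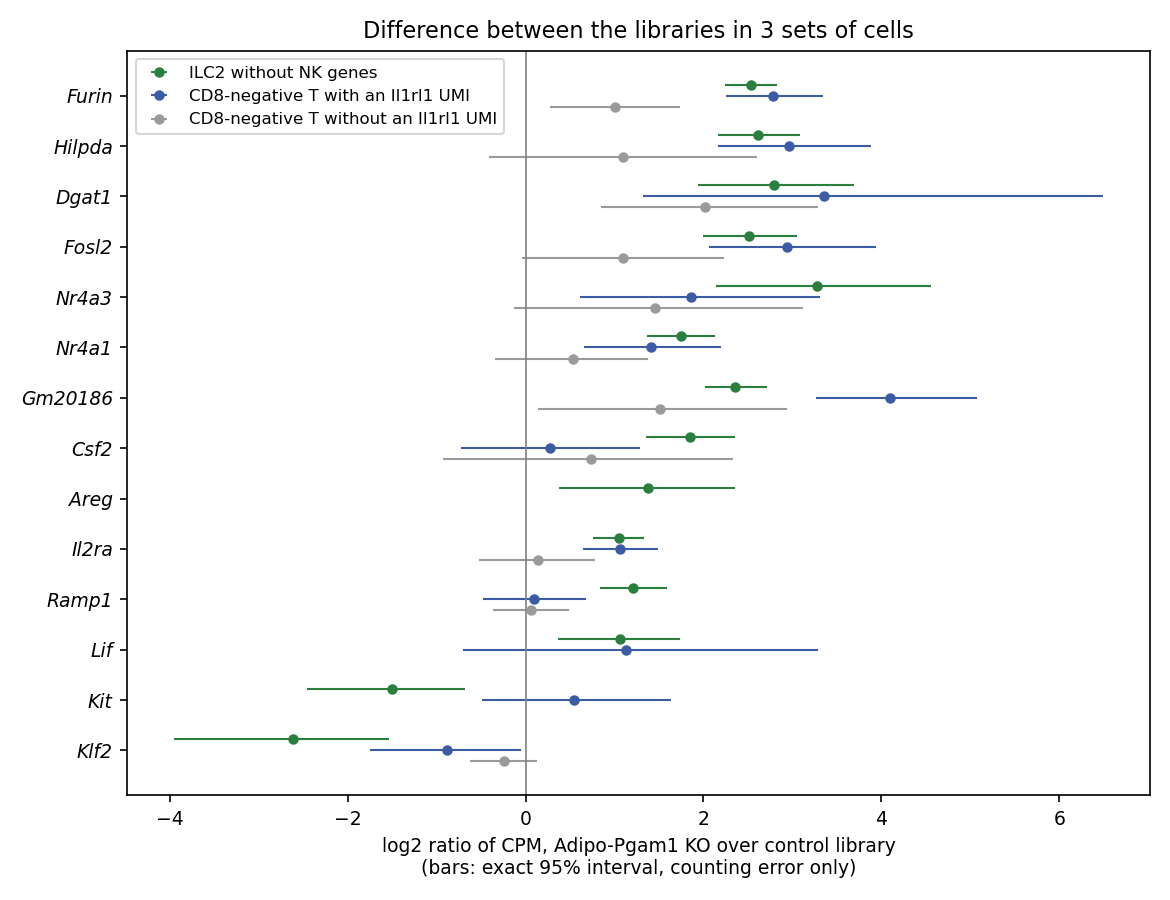
Log2 ratio of KO over control (x axis) with 95% counting intervals for 14 genes (y axis) in ILC2 without NK genes and in CD8-negative T cells with and without a UMI of Il1rl1. Furin, Hilpda and Fosl2 lie well to the right of 0 in ILC2 and in Il1rl1-positive T cells, Csf2 does so in ILC2, Kit lies to the left in ILC2, and Klf2 lies to the left in ILC2 and, less far, in Il1rl1-positive T cells.

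Among receptors, few passed 2-fold. Ramp1, the subunit that makes the calcitonin receptor-like receptor respond to CGRP, had 153 UMIs (222 CPM) in control cells against 102 UMIs (460 CPM) in KO cells, at 1.05 (0.67 to 1.42). A single KO cell held 20 of these UMIs, and without the highest cell of each library the ratio was 0.86 (0.45 to 1.26), under 2-fold. Its share of ILC2 without NK genes was 63.9% in control cells against 95.8% in KO cells, but 39.9% (30.7 to 49.5) and 60.5% (36.4 to 79.3) after thinning. Its partner Calcrl had 38 and 10 UMIs. Il7r was at 811 CPM in control cells against 1042 CPM in KO cells, a log2 ratio of 0.36 (0.13 to 0.58), and Il9r, the receptor of the ILC2 survival factor interleukin 9, had 63 and 26 UMIs, at 0.36. Tnfrsf18, the costimulatory receptor GITR, was at 247 and 266 CPM, and Icos, another costimulator, had 49 and 20 UMIs. Pdcd1, the checkpoint receptor PD-1, had 11 UMIs in control cells against 17 in KO cells, under the minimum of 30 over both libraries. Il17rb, the interleukin 25 receptor, had 20 and 4 UMIs, Nmur1, the neuromedin U receptor, 4 and 1, and Ptgdr2, the prostaglandin D2 receptor CRTH2, had none in either library.

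Kit and Thy1 were lower in the KO cells. Kit, the stem cell factor receptor, had 125 UMIs (181 CPM) in 42.6% of control cells and 16 UMIs (72.2 CPM) in 28.1% of KO cells, a log2 ratio of -1.33 (-2.18 to -0.57), and -1.50 (-2.45 to -0.68) without NK-gene cells. The shares of selected cells after thinning were 27.0% (19.4 to 35.0) and 11.6% (2.11 to 26.5), with overlapping intervals. Klrg1, a gene of the selection, was detected in 47 of the 59 Kit-positive control ILC2 without NK genes and in 75.6% of all control ILC2 without NK genes. Kit also marks mast cells. Over a list of 7 mast cell genes the control cells held 130 UMIs, 125 of them Kit, and the KO cells 35 UMIs, 16 of them Kit and 14 of them Cma1 in NK-gene cells. Of the other mast cell genes, Fcer1a had 1 UMI in control cells against 3 in KO cells, Cpa3 and Mcpt4 had none in control cells and 1 each in KO cells, and Tpsb2 and Ms4a2 had none in either library. The selection itself limited the proteases among them. Thy1 had 252 UMIs (366 CPM) in control cells against 37 UMIs (167 CPM) in KO cells, at -1.13 (-1.67 to -0.63), and -0.69 without NK-gene cells.

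Genes of migration and residency pointed in several directions. Klf2, a factor that promotes egress from tissue, had 144 UMIs in control cells against 7 in KO cells among ILC2 without NK genes, a log2 ratio of -2.61 (-3.95 to -1.53). In CD8-negative T cells it was at -0.61 (-0.96 to -0.28), and at -0.88 (-1.75 to -0.06) in those with Il1rl1. Over all selected cells Klf2 was at -0.21, with 180 and 50 UMIs, so the NK-gene cells held most of its KO UMIs. Ccr9, a gut-homing receptor, had 45 UMIs in 10 control cells and none in the KO cells. Cxcr4, the receptor of CXCL12, had 54 and 42 UMIs at 1.27 (0.66 to 1.88), and at 0.94 without NK-gene cells. Ccr2, a receptor for monocyte chemoattractants, was abundant in both, at 1356 and 1520 CPM, and Cxcr6, a receptor tied to tissue residence, was at 467 and 365 CPM.

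Among the listed transcription factors, Ahr and Eomes alone passed 2-fold over all selected cells. Rora was at 491 CPM in control cells against 356 CPM in KO cells, and Bcl11b, a factor ILC2 share with T cells, had 222 and 66 UMIs at -0.11. Id2 was at 1903 and 1421 CPM, a log2 ratio of -0.42 (-0.60 to -0.24). Pparg, the lipid-sensing nuclear receptor that supports ILC2, was detected in 12.8% of control and 34.4% of KO cells before thinning and in 6.07% and 9.13% after it, and had 27 and 11 UMIs, at 0.34 (-0.82 to 1.40). Ahr, the aryl hydrocarbon receptor, had 41 and 3 UMIs at -2.14 (-4.47 to -0.49). Among ILC2 without NK genes Zeb2, a repressor found in effector lymphocytes and myeloid cells, had 62 and 1 UMIs. The 7 control cells with 10 or more macrophage UMIs, described below, are in this group, and their part in this value was not tested.

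The genes lowest in KO cells were macrophage and dendritic cell genes, and a few control cells held most of their UMIs. Retnla, a product of alternatively activated macrophages, had 586 UMIs in 64 control cells against 3 in KO cells. A single control cell held 478 of them, and without the highest cell of each library 108 against 2 UMIs remained. Lyz2, the lysozyme of myeloid cells, had 409 and 4 UMIs, Cd74, the invariant chain of antigen presentation, 375 in 46 control cells and 11, and C1qa, a complement subunit, 103 and 1. Over a list of 8 macrophage genes the control cells held 848 UMIs (1231 CPM) and the KO cells 8 UMIs (36.1 CPM). Of the 848, 786 (92.7%) were in 7 of the 141 control cells, and the highest held 291. Over the dendritic cell list the sums were 765 and 24 UMIs, with 632 (82.6%) in 5 control cells. The macrophage list showed a like gap in NK cells, at 1233 CPM in control cells against 26.7 CPM in KO cells, and in CD8-negative T cells, at 615 and 55.3 CPM. The part of other cells' RNA or of doublets in these values was not tested.

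**Figure D5:**
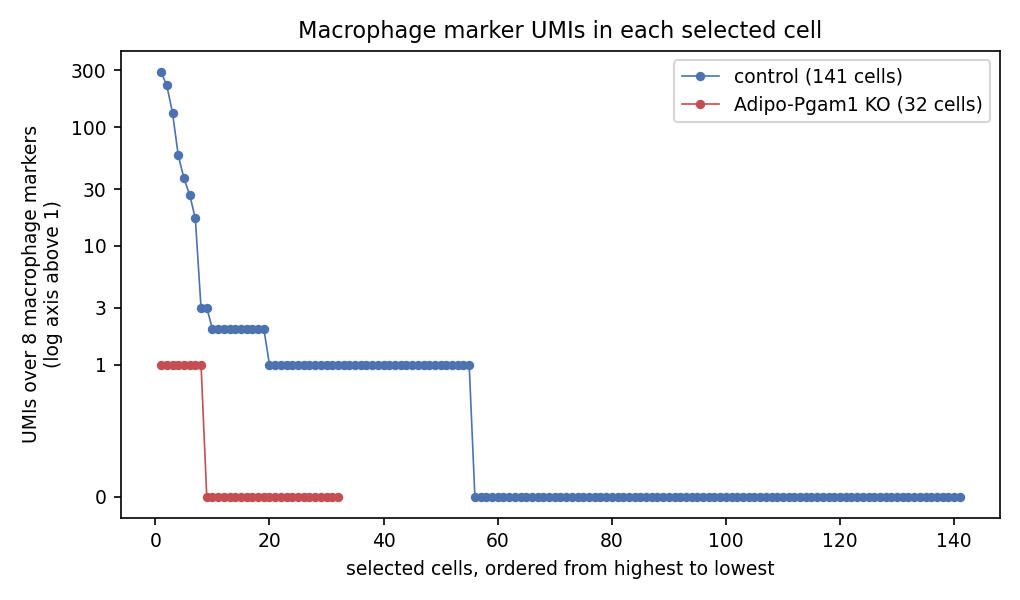
UMIs over 8 macrophage genes in each selected cell (y axis), with cells of a library ordered from the highest (x axis). In the control library 7 cells hold 10 or more and the highest holds 291, while no KO cell holds more than 1.

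Selected cells with a Trac UMI, or with 3 or more UMIs over the macrophage, dendritic cell, B cell, basophil or NK list, were left out next. This left 93 control and 19 KO cells, in which Lyz2 kept 19 and 2 UMIs and Cd74 23 and 2. Those lists held C1qa, Lyz2, Cd74 and Klra4, so the values of these genes there follow from the choice, while Retnla, which they did not hold, had 52 and 1 UMIs. In this set Furin stood at 2.33 (2.00 to 2.66), Hilpda at 2.56, Fosl2 at 2.34, Csf2 at 1.95 and Kit at -1.83, while Irf8 had 2 and 6 UMIs. UMIs of haemoglobin, a product of red blood cells, came to 8207 CPM in control and 1660 CPM in KO selected cells, to 16730 and 1627 CPM in CD8-negative T cells and to 17595 and 12413 CPM in NK cells. A single selected control cell held 2335 of its 5654 UMIs, 23 control cells held 91.0% of them, and the median selected cell held 5 UMIs in the control against 7 in the KO library. The selection limited Pecam1, Dcn and Cd79a, and so in part the lists of endothelial cells, fibroblasts and B cells. The endothelial list had 7 UMIs in control cells against 2 in KO cells and the basophil list 7 and 4. The fibroblast list was at 463 and 284 CPM, led by Dcn, and at 449 and 193 CPM in the pooled lymphocyte sets, and Ighm, an immunoglobulin heavy chain, had 156 UMIs in control cells against 17 in KO cells.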

How the data were processed

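The authors prepared libraries with Chromium Single Cell 3′ v3 kits and made raw UMI counts per gene and barcode with Cell Ranger 3.0.1 on mm10, per the labels, and these deposited counts were read as given, with no normalization. The submitters' notes also name Seurat 3.1.5 on R 4.0.1. The files hold 28692 genes, of which 28416 identifiers matched GENCODE M21 (GRCm38). Library totals were 42859406 UMIs (control) and 13821581 UMIs (KO).

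Counts were summed over cells of a set in each library and expressed as CPM of all their UMIs with pandas 2.3.3, scipy 1.17.1 and numpy 2.4.6 under Python 3.11.15. Log2 ratios carry 95% exact conditional binomial intervals and shares exact Clopper-Pearson intervals, and both cover counting error only. Counts of genes past 2-fold used genes with at least 30 UMIs over both libraries, or at least 10 UMIs against the lymphocyte sets. For ranking, counting and medians over genes, UMI sums under 3 were raised to a floor of 3. Printed ratios of single genes use the sums as they are, and none is printed against a sum of 0. A count of genes past 2-fold uses the ratio alone. Thinned shares are the hypergeometric expectation over all draws of 2000 UMIs per cell, with the interval of the nearest whole number of cells, and leave out shallower cells (6 control and 2 KO ILC2 without NK genes, and as many of all selected cells). No doublets were removed, and removing the cells of highest Scrublet score (scanpy 1.11.5) was an alternative, as were TMM factors (edgeR 4.0.16, R 4.3.3). The code was tested on simulated data.

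Genes named in the text were the selection genes and Nrgn, members of the lists, the 15 leading genes (at least 50 UMIs, over 2-fold higher in both libraries), and the 10 with the largest ratio in each direction between libraries. Members and lists were chosen with earlier results of these data known. Klf2, Zeb2 and Xcl1 without NK-gene cells and the T cell comparison were added after values were seen. A listed gene is not reported here and was left out of the lists, sums and leading genes, which otherwise follow the fixed design.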

Additional observations from a re-analysis of the deposited data

How the results depend on the processing

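No paired analysis was possible because each genotype was 1 library. Alternatives were other cell filters, a marker minimum of 5 UMIs, removal of cells by Scrublet score or by genes of other types, TMM and median-of-ratios scaling, other UMI minima and mean per-cell CPM, and, chosen after seeing the data, removal of NK-gene cells, of the KO cell with Il13 or, for each gene, of its highest cell, and inclusion of cells with 1 CD3 UMI. Of the summary values recomputed, 112 stayed close and 15 moved, and of single-gene values 183 stayed close, 30 moved and 1 reversed. A value stayed close when it lay inside the main value's counting interval, or, for counts of genes, within a set fold of it. Such intervals are wide for sparse genes. Only ratios past 2-fold could count as reversed, so the turned sign of the Foxp3-positive T cell median below does not. These labels give no size of change, and removal of each gene's highest cell was outside this tally. Of the single-gene values, 9 moved under the stricter cell filter below and 6 with mean per-cell CPM. Loosening the cell filter to 200 genes and 20% mitochondrial UMIs gave an ILC2 share of 2.65% (control) and 2.2% (KO). Tightening it to 1000 genes and 5%, which left 51 control and 11 KO ILC2, gave a control share of 2.77%, the median of other ILC2 genes over Foxp3-positive T cells was -0.063, 195 of 1914 genes (10.2%) were over 2-fold lower, against 369 of 4811 (7.67%) without the change, and the log2 ratio of the effector sum was 3.08. Irf8 reversed there, to -0.24, and the cause was not tested. Without cells holding genes of other types the shares were 2.40% and 1.98%, 245 of 2970 genes (8.25%) were lower, and the KO median of other ILC2 genes over CD8-negative T cells was 0.96. Without NK-gene cells the control share was 3.07%. With at least 10 UMIs over both libraries 395 of 8226 genes were higher and 631 lower, and with at least 100 UMIs 31 were higher and 46 lower, of 1437 genes tested, and the cause was not tested. Among genes past 2-fold, 23.6% were higher, 28.6% with TMM, 30.2% with median-of-ratios scaling, 38.5% with at least 10 UMIs and 40.3% with at least 100 UMIs. The number of cells limits the KO values: 24 KO ILC2 without NK genes held 170634 UMIs.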

Other observations

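Ligands known to act on ILC2 were read in all other kept cells of the tissue, as values only. Il33, the ST2 ligand, had 784 UMIs (24.2 CPM) in the control and 233 UMIs (24.6 CPM) in the KO library. Tslp, an epithelial and stromal cytokine, had 500 UMIs (15.4 CPM) and 38 UMIs (4.0 CPM), and was detected in 8.66% and 2.92% of these cells. Il7 had 114 and 49 UMIs, and Icosl, the ligand of ICOS, 1022 UMIs (31.5 CPM) and 271 UMIs (28.6 CPM). Il25 and Nmu had no UMI in either library.

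Barcodes that failed the gene or mitochondrial limits were not part of any comparison. Of 4641 such barcodes in the control library 30 (0.646%, 0.437 to 0.922) met the gene rule of ILC2, and of 1772 in the KO library 5 (0.282%, 0.0917 to 0.657).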
